A study of Homo sapiens with 9 samples.

Results

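The proteasome genes described here are 39 human genes for the constitutive 20S core particle, the 19S regulatory particle and dedicated assembly chaperones of both. They were taken by gene name from a table of 62703 gene rows, and the immunoproteasome subunits were left out by rule. All 39 names matched 1 row each, and all 39 reached a mean of 1 TPM over the libraries, as did 13443 rows of the table. The messenger RNA of cells labelled HepG2, a line from a human liver tumour, had been sequenced in 9 libraries of 3 groups. The first group was given 750 µM palmitic acid for 24 h and then 20 µM curcumin and 5 µM CuCl2 at once for 12 h, the second the same palmitic acid and then curcumin without CuCl2, and the third palmitic acid alone, with 3 libraries each. Palmitic acid, a saturated fatty acid, was thus common to all cells, and curcumin is a polyphenol of turmeric. The labels describe neither a vehicle nor a further 12 h for the cells with palmitic acid alone, so each difference from them includes whatever those 12 h changed.

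The proteasome degrades proteins that carry ubiquitin chains. Its core is a barrel of stacked alpha and beta rings, whose inner chamber holds the catalytic beta subunits, and the regulatory particle that caps it binds ubiquitin chains, removes them and feeds the unfolded substrate through a ring of ATPases. Chaperones that are absent from the finished particle assemble both parts. In human cells, transcription of the subunit genes rises together when proteasome activity falls short, through the transcription factor NRF1 (gene NFE2L1), which binds antioxidant response elements in their promoters. NRF2 (gene NFE2L2) binds the same elements in response to electrophiles.

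The table holds TPM, a transcript's share of the library after division by its length, so levels of different genes can be compared, while the depth of each library is unknown. Markers of the labelled cell type were nearly absent: all 12 hepatocyte markers averaged under 1 TPM, ALB, APOB, APOA2, TTR and FGB stood at 0 in every library, and the 12 summed to 0.74 to 1.53 TPM with curcumin and CuCl2, 0.74 to 2.28 TPM with curcumin and 0.80 to 0.99 TPM with palmitic acid alone. Fibroblast, endothelial and leukocyte markers were under 1 TPM for 7 of 8, 7 of 8 and 5 of 8 genes. Those over it on average were COL1A1, ESAM, CD68, CD14 and CSF1R. Over the 9 libraries the sums ran from 9.32 to 16.67 TPM for fibroblast markers. They ran from 1.81 to 3.53 TPM for endothelial and from 9.23 to 12.74 TPM for leukocyte markers. The share of TPM from mitochondrial genes was 10.7%, 11.8% and 11.4% with curcumin and CuCl2, 10.4%, 12.4% and 10.9% with curcumin, and 13%, 12.5% and 10.1% with palmitic acid alone. Replicate 3 of palmitic acid alone thus stood apart from its 2 partners, and it decides several counts below. Over the tested genes, its log2(TPM + 1) values correlated at 0.970 and 0.974 with replicates 1 and 2 of its group. With single libraries of the curcumin groups the correlation ran from 0.966 to 0.980. The labels do not say that replicates were separate cultures, so p-values reflect how these libraries scatter, which may be technical variation only. In bulk RNA, fewer cells of a kind and less RNA per cell cannot be told apart.

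Upstream sequence is shown for 3 of the genes because the antioxidant response element is the promoter letter pattern named above. Promoter windows from 250 bases before to 50 bases after the start were taken from RefSeq (GRCh38.p14) and were at hand for 33 of the 39 genes. PSMA7, PSMB1, PSMB6, PSMB7, PSMD4 and PSMG3 are named only. The element's core was searched as TGACNNNGC on both strands. Some genes have several windows, so a gene was counted where at least 1 of its windows matched. The core was present for 33.3% of the 33 genes, which are 11 (PSMA4, PSMB3, PSMC4, PSMC5, PSMD1, PSMD3, PSMD5, PSMD9, PSMD12, PSMG1 and PSMG2), and for 16.1% of all 27305 genes with a window. A looser form, TGANNNNGC, which includes every core match, was present for 63.6% of the 33 genes and for 47.1% of all genes with a window. By single windows, all 35116 of them held the core in 13.3% and the looser form in 41.8%. The 3 windows were chosen after the expression values had been seen, as a gene that passed the test, a gene with a large estimate and the gene with the lowest estimate. Capitals mark the matched letters. In PSMB4 (chr1:151399323-151399622, plus strand) they are 3 looser matches on the opposite strand, 159, 118 and 17 bases before the start, and no core match was present. In PSMB3 (chr17:38752491-38752790, plus strand) and PSMD5 (chr9:120842873-120843172, minus strand) they are core matches 104 and 134 bases before the start.
PSMB4: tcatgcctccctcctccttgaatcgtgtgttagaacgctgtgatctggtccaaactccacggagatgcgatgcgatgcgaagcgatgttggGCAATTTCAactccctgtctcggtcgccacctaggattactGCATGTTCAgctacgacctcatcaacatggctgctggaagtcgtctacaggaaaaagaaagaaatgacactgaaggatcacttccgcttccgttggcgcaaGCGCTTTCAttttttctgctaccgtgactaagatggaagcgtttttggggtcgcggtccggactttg
PSMB3: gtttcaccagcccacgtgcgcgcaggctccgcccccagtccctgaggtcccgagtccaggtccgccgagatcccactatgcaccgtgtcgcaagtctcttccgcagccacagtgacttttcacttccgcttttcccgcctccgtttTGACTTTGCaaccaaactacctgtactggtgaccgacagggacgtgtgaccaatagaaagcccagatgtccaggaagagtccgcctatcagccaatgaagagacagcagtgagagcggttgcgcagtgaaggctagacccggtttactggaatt
PSMD5: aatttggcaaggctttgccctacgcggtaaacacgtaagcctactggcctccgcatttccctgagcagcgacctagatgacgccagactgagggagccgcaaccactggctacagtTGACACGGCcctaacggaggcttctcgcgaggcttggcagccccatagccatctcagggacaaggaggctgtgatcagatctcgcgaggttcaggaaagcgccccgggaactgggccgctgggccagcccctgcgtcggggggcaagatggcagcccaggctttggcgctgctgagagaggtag

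Which genes had the higher median depended on the form searched. The 11 genes with a core match had a median log2 fold change of 0.08 with curcumin and CuCl2 and 0.13 with curcumin, each against palmitic acid alone, and the genes without one had 0.14 with CuCl2 and 0.16 with curcumin. With the looser form, genes with a match had 0.15 with CuCl2 and 0.16 with curcumin, and genes without one 0.13 with CuCl2 and 0.12 with curcumin. None of these differences was tested. PSMD5, which has a core match, had the lowest estimate of all 39 genes, and PSMB3, which also has one, was among the 3 highest. A match is a description of the letters and not evidence of a bound site.

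Together the 39 genes took a larger share of the transcripts in both curcumin groups than with palmitic acid alone. Their summed level was 9452, 9181 and 9298 TPM with curcumin and CuCl2, 9443, 9324 and 9379 TPM with curcumin, and 7928, 8123 and 8242 TPM with palmitic acid alone. The curcumin groups overlapped each other, and each of their 6 libraries was above the 3 with palmitic acid alone. The mean was 9310 ± 136 TPM with curcumin and CuCl2 and 9382 ± 59.2 TPM with curcumin, against 8098 ± 158 TPM with palmitic acid alone (SD, n = 3 each), which is 1.15-fold with CuCl2 and 1.16-fold without. The core particle carried most of this. Its 14 genes summed to 5213 ± 87.8 TPM with curcumin and CuCl2, 5247 ± 74.4 TPM with curcumin and 4382 ± 209 TPM with palmitic acid alone, which is 1.19-fold with CuCl2 and 1.20-fold without. The 17 genes of the regulatory particle summed to 3181 ± 8.91 TPM with curcumin and CuCl2, 3228 ± 81.9 TPM with curcumin and 2882 ± 106 TPM with palmitic acid alone, 1.10-fold with CuCl2 and 1.12-fold without. The 8 assembly factor genes summed to 917 ± 54.8 TPM with curcumin and CuCl2, 907 ± 55.5 TPM with curcumin and 834 ± 64.3 TPM with palmitic acid alone, and their groups overlapped.

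**Figure D1:**
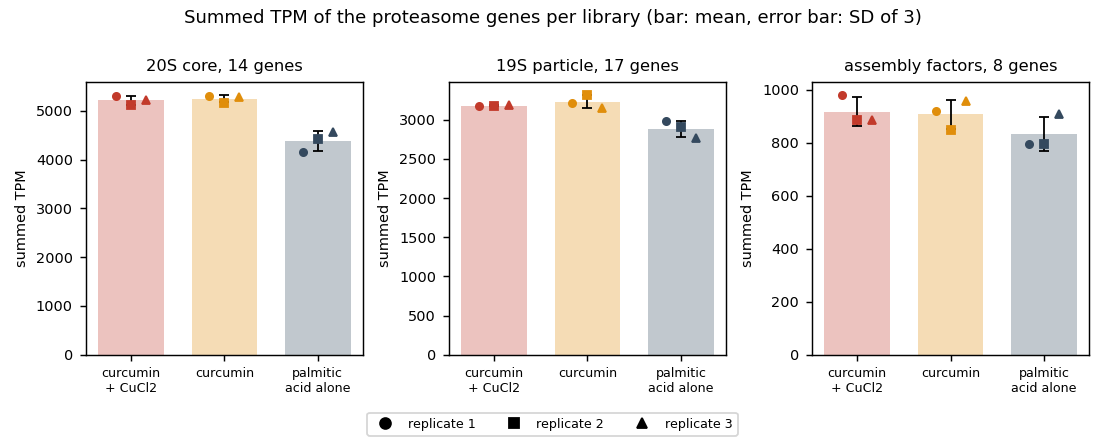
Summed TPM per library (points, with the symbol giving the replicate) of the 14 core, 17 regulatory and 8 assembly genes, with bars for the group mean and error bars for the SD of 3 libraries. The 6 libraries with curcumin lie above those with palmitic acid alone for the core and the regulatory genes, while the assembly genes overlap.

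Gene by gene, the differences were small and mostly of 1 sign. Fold changes are given on the scale of log2(TPM + 1), from a linear model with a mean per group. With curcumin, 37 of the 39 genes had a positive log2 fold change over palmitic acid alone, against 46.3% of the 13443 genes tested, and with curcumin and CuCl2 35 did, against 43.8%. The median was 0.16 with curcumin (1.12-fold, range -0.18 to 0.36) and 0.17 with curcumin and CuCl2 (1.12-fold, range -0.19 to 0.40), where the median of all genes was -0.02 with curcumin and -0.03 with CuCl2. Few genes passed singly. In limma with Benjamini-Hochberg adjustment over all genes, PSMB1, PSMB4 and PSMD4 rose with curcumin and none fell, 3 of 39 where 1.96% of all genes passed, 0.759% higher and 1.21% lower. None of the 39 passed with curcumin and CuCl2, where 1.44% of all genes did (0.543% higher and 0.9% lower) and the lowest adjusted p among the 39 was 0.0587. At an unadjusted p under 0.05 there were 19 of the 39 in each comparison, where 14% of all genes stood with curcumin and 13.5% with CuCl2. Libraries did not overlap, with curcumin higher, in 16 of the 39 genes, where 8.15% of all genes were so, and with curcumin and CuCl2 higher in 21, where 8.67% were. No proteasome gene lay lower without overlap in either comparison, where 8.61% of all genes did with curcumin and 10.3% with CuCl2. Both comparisons share the libraries with palmitic acid alone, so their values are not independent of each other.

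The 3 calls rest on small margins. The count with curcumin was 10 without replicate 3 of palmitic acid alone, where 4.6% of all genes passed, and 0 without any other single library of the 9, those with CuCl2 included. In the fits with 0, 0.402% to 0.751% of all genes passed, against 1.96% in the main fit. The count was also 0 without a filter on low genes or with only the 6 libraries compared, where 0.326% and 0.26% of all genes passed. The same held with a replicate block or with no variance trend, where 1.32% and 0.967% did. Median-of-ratios scaling called PSMA1 and PSMD14 in place of these 3, where 2.35% of all genes passed. With CuCl2, where the main fit called none, this scaling called the same 2 genes, and 1.88% of all genes passed. With CuCl2 the count was likewise 10 without replicate 3 of palmitic acid alone, where 3.92% of all genes passed. It was 0 without any other library, where 0.342% to 1.25% did. The direction was less dependent on that library: 33 of the 39 fold changes were positive without it in each comparison.

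**Figure D2:**
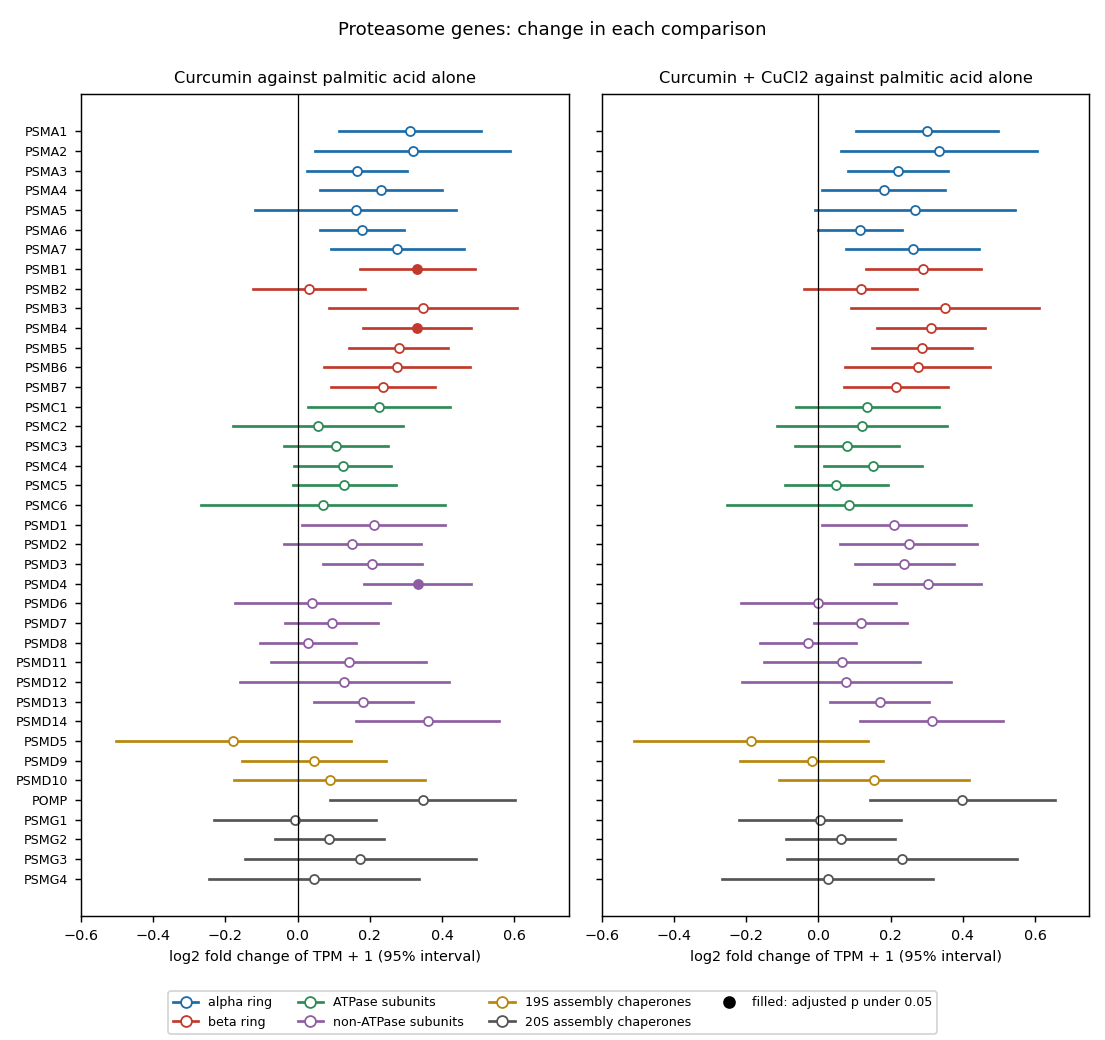
Log2 fold change of TPM + 1 with its 95% interval for each of the 39 genes, coloured by role, for curcumin and for curcumin with CuCl2, each against palmitic acid alone; filled points passed limma at an adjusted p under 0.05. Most points lie right of 0, the alpha and beta rings farthest by their medians, and PSMG1 and PSMD5 lie at or left of 0 with curcumin.

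The alpha ring forms the outer gate of the core. All 7 of its genes had a positive fold change in both comparisons, none passed, and the median was 0.23 with curcumin and 0.26 with curcumin and CuCl2. Mean levels ran from 149 TPM for PSMA5 to 618 TPM for PSMA4, although the finished particle holds these subunits in equal number. PSMA2 had the largest estimate of the ring, at 203, 188 and 175 TPM with curcumin and CuCl2, 196, 173 and 190 TPM with curcumin, and 129, 141 and 182 TPM with palmitic acid alone. Replicate 3 of palmitic acid alone lay within both curcumin groups, so the groups overlapped. The log2 fold change was 0.33 (SE 0.12, limma adjusted p = 0.244) with CuCl2 and 0.32 (SE 0.12, adjusted p = 0.265) without. PSMA2 shares exon sequence with a read-through transcript of the same strand at 29.5 TPM and with MRPL32 on the other strand at 180 TPM, and whether the authors counted by strand is not given in the sources used here, so its level is uncertain. PSMA1, named after its values were seen, had 278, 284 and 279 TPM with curcumin and CuCl2, 269, 308 and 272 TPM with curcumin, and 243, 243 and 199 TPM with palmitic acid alone. There the groups did not overlap, and replicate 3 of palmitic acid alone was the lowest library, where for PSMA2 it was the highest of its group.

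The beta ring holds the proteolytic sites, and its genes had the highest median estimate of the 6 roles, 0.28 with curcumin and 0.29 with curcumin and CuCl2. All 7 had a positive fold change in both comparisons. PSMB1 and PSMB4 passed with curcumin, where 0.759% of all genes passed as higher. With CuCl2 all 7 lay above palmitic acid alone without overlap, where 8.67% of all genes did. With curcumin 4 did, where 8.15% of all genes did.

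The 3 catalytic genes showed similar estimates, and none of them passed. PSMB5, whose product carries the chymotrypsin-like activity, had 391, 409 and 411 TPM with curcumin and CuCl2, 403, 403 and 398 TPM with curcumin, and 306, 346 and 342 TPM with palmitic acid alone. All 6 libraries with curcumin were higher, and the log2 fold change was 0.29 (SE 0.06, limma adjusted p = 0.0587) with CuCl2 and 0.28 (SE 0.06, adjusted p = 0.0557) without. PSMB6, which encodes the caspase-like subunit, had 413, 388 and 392 TPM with curcumin and CuCl2, 414, 369 and 412 TPM with curcumin, and 292, 326 and 373 TPM with palmitic acid alone. Curcumin replicate 2 was just under the highest library with palmitic acid alone, and the log2 fold change was 0.27 (SE 0.09, adjusted p = 0.193) with CuCl2 and 0.28 (SE 0.09, adjusted p = 0.185) without. PSMB7, which encodes the trypsin-like subunit, had 413, 398 and 418 TPM with curcumin and CuCl2, 428, 405 and 415 TPM with curcumin, and 331, 348 and 382 TPM with palmitic acid alone. Its groups did not overlap, and the log2 fold change was 0.21 (SE 0.06, adjusted p = 0.153) with CuCl2 and 0.24 (SE 0.06, adjusted p = 0.111) without.

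The other beta genes encode structural subunits. PSMB4, the most abundant gene of the 39 (chromosome 1, 151399534 to 151401944, plus strand, GRCh38), had 720.2, 695 and 729 TPM with curcumin and CuCl2, 741, 697 and 736 TPM with curcumin, and 537, 566 and 629 TPM with palmitic acid alone. It rose 1.26-fold with curcumin, a log2 fold change of 0.33 (SE 0.07, limma adjusted p = 0.0423), while with CuCl2 the estimate was 0.31 (SE 0.07, adjusted p = 0.0588) and did not pass. PSMB1 (chromosome 6, 170535117 to 170553341, minus strand) had 312, 301 and 317 TPM with curcumin and CuCl2, 334, 300.2 and 323 TPM with curcumin, and 233, 258 and 269.8 TPM with palmitic acid alone. It rose by 0.33 on the log2 scale with curcumin (SE 0.07, adjusted p = 0.0499, just under the threshold of 0.05), and the estimate with CuCl2 was 0.29 (SE 0.07, adjusted p = 0.0836). In both genes the 6 libraries with curcumin were all above those with palmitic acid alone. PSMB3 had 481, 445.3 and 469 TPM with curcumin and CuCl2, 478, 431 and 484 TPM with curcumin, and 311, 350.1 and 444.6 TPM with palmitic acid alone. Its estimate was as large, 0.35 in both comparisons (SE 0.12, adjusted p = 0.199 with CuCl2 and 0.196 without), but replicate 3 of palmitic acid alone lay above curcumin replicate 2 and just below the libraries with CuCl2. PSMB2 was the exception of the ring, at 108, 101 and 97.9 TPM with curcumin and CuCl2, 94.9, 91.9 and 102 TPM with curcumin, and 97.3, 89.7 and 95.2 TPM with palmitic acid alone. Curcumin overlapped palmitic acid alone, with a log2 fold change of 0.03 (SE 0.07, 95% interval -0.12 to 0.19), and with CuCl2 it was 0.12 (SE 0.07, adjusted p = 0.529).

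**Figure D3:**
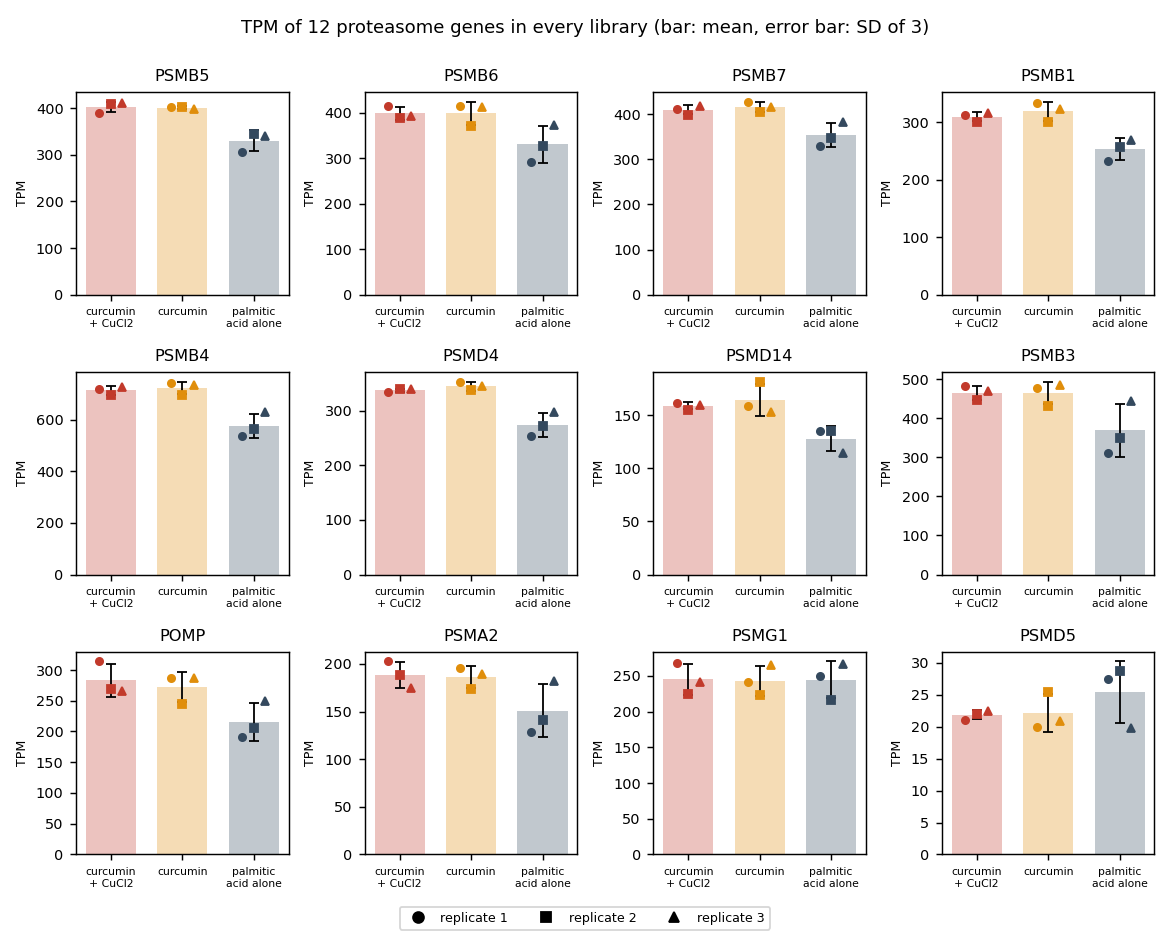
TPM of 12 proteasome genes in every library (points, with the symbol giving the replicate), bars for the group mean and error bars for the SD of 3 libraries, with axes from 0. PSMB1, PSMB4 and PSMD4 lie higher in all 6 libraries with curcumin than in the 3 with palmitic acid alone, PSMB3, PSMA2 and POMP overlap between curcumin and palmitic acid alone through replicate 3 of palmitic acid alone, and PSMG1 and PSMD5 do not lie higher.

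Estimates were smaller in the regulatory particle. Its 6 ATPase genes, PSMC1 to PSMC6, which encode the ring that unfolds substrates, all had positive fold changes in both comparisons, none passed, and the median was 0.11 with curcumin and 0.10 with curcumin and CuCl2. Values of PSMC1 and PSMC5 are less certain than the others, since pseudogene rows of PSMC1 sum to 5.70% of its level and PSMC5 shares exon sequence with FTSJ3 on the other strand, at 54.0 TPM. Of the 11 non-ATPase genes, 11 were positive with curcumin and 9 with curcumin and CuCl2, and the median was 0.15 with curcumin and 0.17 with CuCl2.

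PSMD4, which encodes a subunit that binds ubiquitin chains, passed with curcumin. It lies on chromosome 1 (151254703 to 151267479, plus strand) and had 335, 339 and 340.2 TPM with curcumin and CuCl2, 354, 338 and 345 TPM with curcumin, and 253, 273 and 298 TPM with palmitic acid alone. The groups with curcumin did not overlap palmitic acid alone, and PSMD4 rose by 0.33 on the log2 scale with curcumin (SE 0.07, limma adjusted p = 0.0391). With CuCl2 the estimate was 0.30 (SE 0.07, adjusted p = 0.0628). PSMD14 encodes the enzyme that cuts ubiquitin chains from the substrate and had 162, 155 and 159.8 TPM with curcumin and CuCl2, 159, 182 and 153 TPM with curcumin, and 135, 135 and 114 TPM with palmitic acid alone. Its libraries did not overlap either, and its estimate of 0.36 with curcumin was the largest of the 39 genes in that comparison (SE 0.09, adjusted p = 0.0805), with 0.31 (SE 0.09, adjusted p = 0.129) after CuCl2 was added. Estimates of other subunits of the same lid varied. PSMD3 had 0.24 with CuCl2 and 0.21 without, and PSMD13 0.17 and 0.18, both with no overlap with palmitic acid alone and neither passing, while PSMD8 and PSMD6 were near 0. PSMD3 and PSMD13 were named after their values were seen, and PSMD13 shares exon sequence with SIRT3 on the other strand, at 12.6 TPM. PSMD8 had 153, 152 and 152 TPM with curcumin and CuCl2, 158, 152 and 165 TPM with curcumin, and 163, 151 and 153 TPM with palmitic acid alone, with a log2 fold change of -0.03 (95% interval -0.16 to 0.10) with CuCl2 and 0.03 (-0.10 to 0.16) without. PSMD6 had 90.1, 85.8 and 85.9 TPM with curcumin and CuCl2, 87.9, 96.7 and 85.3 TPM with curcumin, and 95.4, 92.6 and 75.3 TPM with palmitic acid alone, and its intervals of -0.21 to 0.21 with CuCl2 and -0.17 to 0.26 without include 0. For both genes the 3 groups overlapped.

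Estimates of the core's assembly chaperones ran from near 0 for PSMG1 to the highest of the set for POMP. POMP completes the beta ring and is itself degraded as the core matures. It had 314, 269 and 267 TPM with curcumin and CuCl2, 287, 244 and 287 TPM with curcumin, and 191, 205 and 250.2 TPM with palmitic acid alone. Its estimate of 0.40 with curcumin and CuCl2 was the largest of the 39 genes in that comparison (SE 0.11, limma adjusted p = 0.135), with no overlap, and with curcumin it was 0.35 (SE 0.11, adjusted p = 0.189), with replicate 2 below the highest library with palmitic acid alone. PSMG1, whose product pairs with that of PSMG2 to start the alpha ring, had 268, 225 and 242 TPM with curcumin and CuCl2, 242, 223 and 265 TPM with curcumin, and 250.5, 217 and 267 TPM with palmitic acid alone. The 3 groups overlapped fully, and the log2 fold change was 0.0037 (95% interval -0.22 to 0.23) with CuCl2 and -0.01 (-0.23 to 0.22) without. Among the 5 core chaperone genes the median was 0.06 with CuCl2 and 0.09 without. PSMG2 shares exon sequence with SPIRE1 and CEP76 on the other strand, at 16.6 and 7.17 TPM.

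The set's 3 chaperones of the regulatory particle, PSMD5, PSMD9 and PSMD10, had medians of -0.02 with CuCl2 and 0.05 without. PSMD9 had 119, 109 and 104 TPM with curcumin and CuCl2, 120.4, 104 and 124 TPM with curcumin, and 114, 104 and 119 TPM with palmitic acid alone, which overlapped. PSMD5, named after its values were seen, had 21.1, 22.1 and 22.6 TPM with curcumin and CuCl2, 20.0, 25.5 and 21.0 TPM with curcumin, and 27.5, 28.8 and 19.8 TPM with palmitic acid alone. It was the only gene of the 39 with an estimate under -0.10 in either comparison, -0.19 with CuCl2 (SE 0.14, limma adjusted p = 0.653) and -0.18 without (SE 0.14, adjusted p = 0.678). Replicate 3 of palmitic acid alone was the lowest of all 9 libraries for it, so the groups overlapped.

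Adding CuCl2 to curcumin was not followed by a detectable difference in any of the 39 genes. None passed limma with curcumin and CuCl2 against curcumin (adjusted p of 1 for all 39), as for 0% of the 13443 genes, and none of the 39 had an unadjusted p under 0.05, where 1.6% of all genes did. The median log2 fold change was -0.01, with 16 positive and 23 negative, where 45.6% of all genes were positive. All 39 intervals lay within 0.5 either way on the log2 scale, from a lowest bound of -0.34 for PSMD12 to a highest of 0.38 for PSMA5, so differences smaller than that remain possible. Libraries did not overlap in 3 genes, where 6.24% of all genes did not. PSMD2 and PSMD3, which encode a scaffold of the base and a subunit of the lid, were higher with CuCl2, where 2.63% of all genes were so, and PSMA6, an alpha ring gene, was lower, where 3.61% were. PSMA6 had 362, 355 and 363 TPM with curcumin and CuCl2, against 365, 383 and 379.7 TPM with curcumin. PSMD2 had 229, 244 and 234 TPM with curcumin and CuCl2, against 219, 227 and 215 TPM with curcumin.

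Within groups, the 39 genes did not vary together but along 2 opposite courses. Each gene's deviation from its group mean was correlated with that of the mitochondrial TPM share over the 9 libraries, a description with 3 libraries a group and 1 shared TPM total per library. The correlation was over 0.5 for 17 genes and under -0.5 for 19, with PSMB2, PSMB5 and PSMD8 between. Over all genes tested, 52.6% were over 0.5 and 15.6% under -0.5. The ends were PSMC6 at 0.98 and POMP at -0.96. PSMC6 had 131, 148 and 136 TPM with curcumin and CuCl2, 127, 158 and 127 TPM with curcumin, and 148, 147 and 101 TPM with palmitic acid alone, so it was low where the mitochondrial share was low. By role, the first course held 4 alpha ring, 3 ATPase, 8 non-ATPase and 2 regulatory chaperone genes. The second held 5 beta ring and 5 core chaperone genes, 3 alpha ring, 3 ATPase and 2 non-ATPase genes and 1 regulatory chaperone gene.

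The courses were defined by the mitochondrial share within groups, so which library of a group is high or low in each follows from that choice and is given as a description. On log2(TPM + 1) minus each gene's mean over the 9 libraries, the 17 genes had a median of 0.06, 0.04 and 0.05 with curcumin and CuCl2, 0.02, 0.16 and 0.02 with curcumin, and 0.0043, -0.04 and -0.29 with palmitic acid alone, the last in replicate 3. The 19 genes had 0.10, 0.06 and 0.07 with curcumin and CuCl2, 0.13, -0.0007 and 0.12 with curcumin, and -0.32, -0.17 and 0.01 with palmitic acid alone, lowest in replicate 1. Over all 39 genes the courses met at a nearly even level, with medians of 0.08, 0.06 and 0.05 with curcumin and CuCl2, 0.06, 0.06 and 0.06 with curcumin, and -0.10, -0.12 and -0.09 with palmitic acid alone. The ratio of summed core to summed regulatory TPM was 1.67, 1.61 and 1.64 with curcumin and CuCl2, 1.65, 1.56 and 1.67 with curcumin, and 1.40, 1.53 and 1.65 with palmitic acid alone, where it spread most. With the mitochondrial share as a covariate, 21 of the 39 genes passed with curcumin and CuCl2 and 20 with curcumin, all higher, where 10.7% of all genes passed with CuCl2 and 11.2% with curcumin. The part of the mitochondrial share in these differences was not tested beyond this fit.

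**Figure D4:**
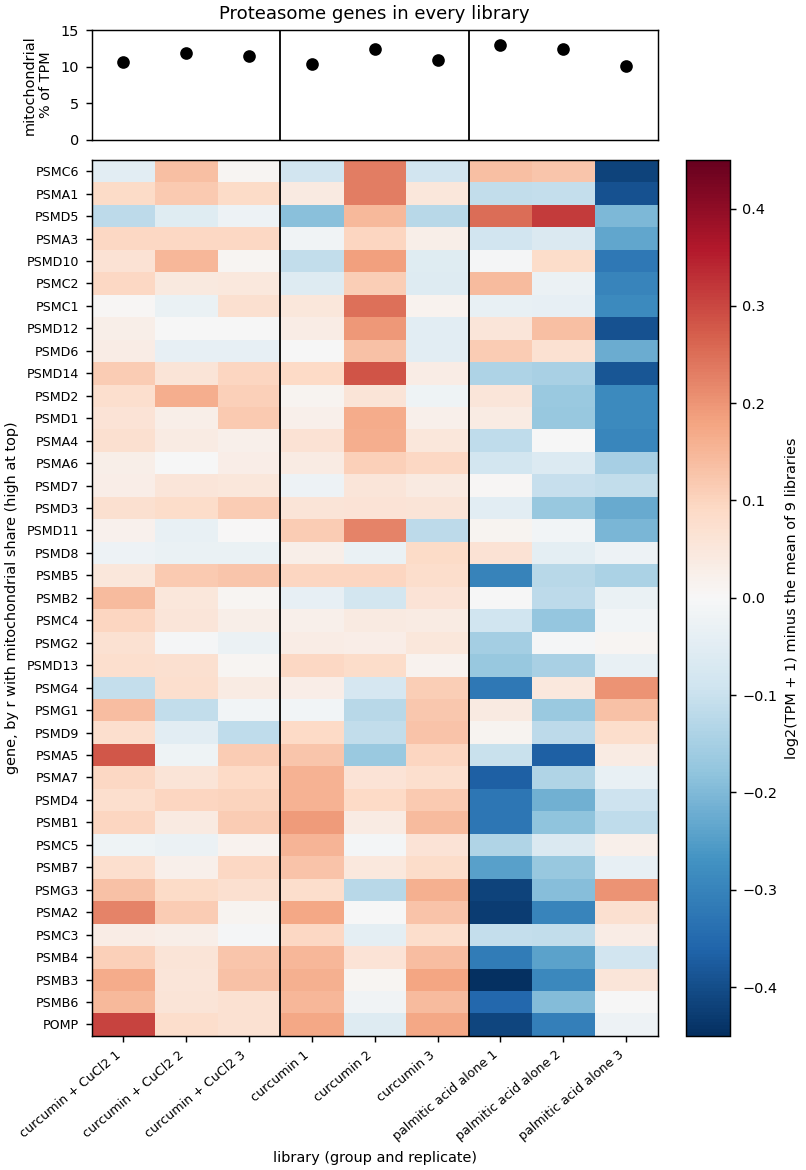
Log2(TPM + 1) of each of the 39 genes minus its mean over 9 libraries, with genes ordered by their within-group correlation with the mitochondrial TPM share, which is drawn above per library in %. By this ordering, genes at the top are lowest in replicate 3 of palmitic acid alone and genes at the bottom in replicate 1 of that group, and most genes lie near or above their mean in the 6 libraries with curcumin.

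The courses went with transcript length and base composition. The 17 genes of the first had a median length of 2188 bases and 44.5% G and C, and the 19 of the second 1391 bases and 52.2%. Both measures are of 1 annotated transcript per gene, which need not be the form these cells express. Spearman's rho between length and the correlation with mitochondrial share was 0.51 over the 39 genes and 0.53 over the 13035 tested genes with an annotated transcript, and for G and C content it was -0.44 and -0.43. Shorter transcripts also had the larger estimates, with a rho of -0.39 between length and log2 fold change with curcumin and CuCl2 and -0.40 with curcumin over the 39 genes. These are descriptions over genes that share libraries, and the part of length in the fold changes was not tested.

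**Figure D5:**
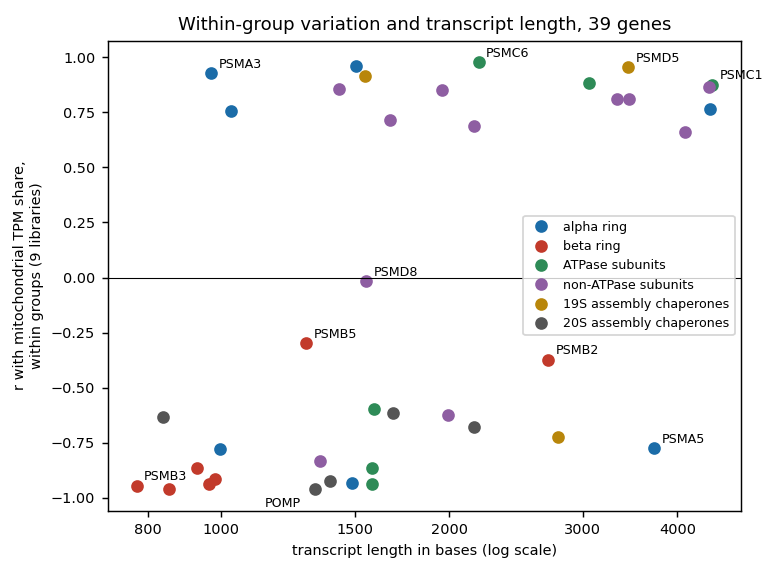
Within-group correlation with the mitochondrial TPM share over 9 libraries against annotated transcript length in bases (log scale), 1 point per gene, coloured by role. Beta ring genes other than PSMB2 gather at short lengths and negative values, and most of the longest transcripts lie above 0.5.

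Related genes outside the set are set against the same background, 1.44% of all genes passing with CuCl2 and 1.96% without. SQSTM1, which encodes a ubiquitin-binding autophagy receptor, rose with 3130.4, 3209 and 3185 TPM with curcumin and CuCl2, 3351, 3262 and 3151 TPM with curcumin, and 2241, 2049 and 2022 TPM with palmitic acid alone (log2 fold changes of 0.59 with CuCl2 and 0.63 without, limma adjusted p = 0.00164 with CuCl2 and adjusted p = 0.00106 without). UFD1, a cofactor gene of the p97 unfoldase, rose by 0.36 with CuCl2 and 0.35 without (adjusted p = 0.0125 and adjusted p = 0.0150). They were the 2 genes that passed of 12 for ubiquitin and p97 cofactors, whose median was 0.05 with CuCl2 and 0.06 without. PSME4, which encodes an alternative activator of the core, rose by 0.41 with curcumin (adjusted p = 0.0465) and had an estimate of 0.34 with CuCl2 (adjusted p = 0.0963), 1 of 19 activator and associated genes. The 19 include SEM1, a small subunit of the regulatory particle that is not in the set, with means of 633 ± 25.5 TPM with curcumin and CuCl2, 692 ± 78.3 TPM with curcumin and 556 ± 49.0 TPM with palmitic acid alone (SD, n = 3 each). No gene passed among 13 that act on or with NRF1 or NRF2, where the median was -0.10 with CuCl2 and -0.14 without and 4 of the 13 were positive in each. Among these 4, KEAP1, which encodes the repressor of NRF2, had 81.5 ± 4.31 TPM with curcumin and CuCl2, 83.2 ± 3.34 TPM with curcumin and 66.9 ± 3.54 TPM with palmitic acid alone, with no overlap (limma adjusted p = 0.0949 with CuCl2 and adjusted p = 0.0659 without). NFE2L1 itself had 73.6 ± 2.21 TPM with curcumin and CuCl2, 76.6 ± 9.95 TPM with curcumin and 87.4 ± 18.1 TPM with palmitic acid alone, which overlapped. VCP, the p97 gene, had 255 ± 10.9 TPM with curcumin and CuCl2, 257 ± 6.23 TPM with curcumin and 214 ± 13.1 TPM with palmitic acid alone (limma adjusted p = 0.0935 with CuCl2 and adjusted p = 0.0743 without).

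The inducible immunoproteasome subunits were low. PSMB8 had 0.85, 0.46 and 0.63 TPM with curcumin and CuCl2, 0.67, 1.18 and 1.10 TPM with curcumin, and 1.40, 1.68 and 1.95 TPM with palmitic acid alone, in the opposite direction to its constitutive counterpart PSMB5, and did not pass (limma adjusted p = 0.0999 with CuCl2 and adjusted p = 0.314 without). PSMB9 was under 1 TPM in all 9 libraries, and PSMB10 had 17.6 ± 2.11 TPM with curcumin and CuCl2, 16.1 ± 2.89 TPM with curcumin and 16.7 ± 4.02 TPM with palmitic acid alone (SD, n = 3 each). The COP9 signalosome, a complex built like the lid, had a median of 0.01 with CuCl2 and 0.02 without over 9 genes, and the 8 genes of the CCT chaperonin had 0.0056 with CuCl2 and 0.0002 without, with none passing in either.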

How the data were processed

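TRIzol RNA from each sample went into Illumina's stranded mRNA library kit, per the labels' protocols. The authors deposited 1 table of TPM for the 9 libraries. The submitters' processing notes name HISAT2 2.1.0, RSEM 1.3.3 and GRCh38.p13, and the annotation release and strand setting are not given in the sources used here. TPM keeps no depth, so no counting interval is given and no count model was used. Rows with a mean of at least 1 TPM (13443, holding 99.7% of the TPM) entered limma 3.58.1 (R 4.3.3) as log2(TPM + 1), with a mean per group over all 9 libraries and a variance trend. The 3 differences were tested two-sided, with Benjamini-Hochberg adjustment over all genes at 0.05. The test was checked on simulated data. No set test was run.

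The proteasome genes and the gene lists were chosen with earlier results of these data known. Values per library are given for genes that passed, the 3 largest and 3 smallest estimates against palmitic acid alone, PSMB5, PSMB6, PSMB7 and POMP. PSMA6, PSMD2 and PSMC6 were added after their values were seen. Any other gene with values per library is said to be so chosen or comes from a list. The planned rule for printing promoters, a gene that passed and held the core letters, selected none, so 3 windows were chosen otherwise. Of the 3 genes that passed, only PSMB4 had a window to search, and PSMB1 and PSMD4 had none. Gene positions, transcript lengths and exon overlaps come from GENCODE release 29 (GRCh38), and promoters from RefSeq (GRCh38.p14). Length and base composition were taken from each gene's longest transcript, with those annotated as principal and then as protein-coding preferred. Figures were drawn with matplotlib 3.10.9. In all, 19 alternatives were tried.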

Additional observations from a re-analysis of the deposited data

How the results depend on the processing

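The number of proteasome genes past the threshold varied with the processing. Without the filter, with only the 6 libraries compared, with a replicate block or with no variance trend, each fold change stays as it was. Its direction could not move there. With curcumin, 37 of the 39 fold changes were positive in the main fit and 38 under median-of-ratios scaling. The count was 36 with mitochondrial share as a covariate and 33 without replicate 3 of palmitic acid alone. Against palmitic acid alone, the 3 calls with curcumin became 0 with no filter on low values, with only the 6 libraries of both groups, with a replicate block and with no variance trend, and 20 with mitochondrial TPM share as a covariate. In these fits 0.326%, 0.26%, 1.32%, 0.967% and 11.2% of all genes passed, against 1.96% in the main fit. Leaving out 1 library at a time gave 0 to 10, where 0.402% to 4.6% of all genes passed. The 0 calls with curcumin and CuCl2 became 2 with a minimum mean of 5 TPM, with median-of-ratios scaling and with mitochondrial genes left out, 21 with the covariate, and 0 to 10 over the libraries left out. Of all genes, 2.28%, 1.88%, 1.4%, 10.7% and 0.342% to 3.92% passed in these fits, against 1.44% in the main fit. Median-of-ratios scaling moved the median log2 fold change to 0.21 with CuCl2, 0.20 with curcumin and 0.0024 between them, the last a change of sign, leaving out mitochondrial genes moved it to 0.15 with curcumin, and the covariate moved it to 0.18 with CuCl2 and 0.19 with curcumin. The median of all genes also changed sign under median-of-ratios scaling. It went from -0.027 to 0.013 with CuCl2, from -0.017 to 0.011 with curcumin and from -0.0083 to 0.0031 between them. Over the libraries left out the medians ran from 0.14 to 0.19 with CuCl2, 0.15 to 0.18 with curcumin and -0.024 to -0.0024 between them. Without mitochondrial genes the summed level was 10499 TPM with curcumin and CuCl2, 10570 TPM with curcumin and 9186 TPM with palmitic acid alone, since TPM was then rescaled to the genes left. The looser letters were present for 63.6% of the genes with a window. The causes of the other shifts were not tested.

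For single genes no called direction reversed under any of the 19 alternatives, but several of these could not reverse one. A changed filter, the replicate block, no variance trend and the fit of 6 libraries keep each estimate as it was. So does leaving out a library of the group not compared. The labels do not say whether libraries of the same replicate number were handled together. Of 9 same-numbered pairs across groups, 2 deviated together with a correlation over 0.1 (range -0.27 to 0.25). With 3 libraries a group these correlations cannot decide whether the libraries were paired. The 0 calls under the replicate block are therefore neither set aside nor read as a weaker effect. No proteasome gene passed between curcumin with CuCl2 and curcumin under any alternative, where 0% to 0.0298% of all genes did. Depth is unknown, so its limit on these values cannot be given.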
